A study of Drosophila melanogaster with 2 samples.

Results

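The TADs of 40 kb or less in the Hi-C map of Kc167 cells are described here. In Hi-C, chromatin fixed with formaldehyde is cut (here with DpnII) and re-ligated, so that each sequenced di-tag records a contact between a pair of genomic positions. Kc167 is an established embryonic cell line of Drosophila melanogaster, grown without treatment, so the series holds a single condition in 2 replicates. The authors combined both replicates into a single map of 10 kb bins on release 5 of the genome (34287983 di-tags over 8265968 bin pairs), so none of the values below has a spread between replicates. The segmentation program HiCseg, run on the normalised form of this map, divides chromosome X and the arms of chromosomes 2 and 3 into 1305 segments or TADs. Of these, 390 span 40 kb or less (29.9%, 95% Wilson interval 27.5 to 32.4%) and are called short TADs. They were chosen by their length alone, but that length was itself set from the contacts of this map. All values of contacts within an arm are therefore given as a description, without a test. The 5 arms serve as a measure of how far a value varies.

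Topologically associated domains (TADs) are stretches of the chromosome whose loci contact each other more than they contact the stretches on either side. In Drosophila long TADs are commonly silent or regulated chromatin, while the regions between them are rich in housekeeping genes and in architectural proteins such as BEAF-32 and Chromator. HiCseg treats the map as a row of square blocks along the diagonal and places borders where the contact level changes, so that a short TAD is a small block and not necessarily a domain of the kind seen at long TADs. No gene is placed in a TAD here, because the gene annotation at hand belongs to another release of the genome.

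Short TADs take up 10.4% of the 117.7 Mb that are segmented. There are 91 of 20 kb, 147 of 30 kb and 150 of 40 kb, besides one of 35.053 kb at the end of 3R and one of 12.827 kb at the end of X. None consists of a single full bin. X carries the most, 89 of its 253 TADs (35.2%) or 4.05 per Mb, and 3R the fewest for its length, 76 of 299 (25.4%) or 2.74 per Mb. The share is 33.6% on 2L, 27.3% on 2R and 29.0% on 3L. The Wilson intervals of X (29.6 to 41.2%) and 3R (20.8 to 30.6%) overlap. They take TADs as independent draws, and whether the arms differ was not tested. For comparison, 585 TADs of 50 to 110 kb are called medium and 330 of 120 kb or more are called long.

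The normalised signal of each bin pair was divided by the arm's mean at the same distance (observed over expected), so that 1 is the arm mean. Inside short TADs, between bins 10 to 30 kb apart, the median was 1.34 times the arm mean (quartiles 1.11 and 1.73, range 0.251 to 8.45, with both extremes in TADs of 20 kb). It was 1.34 on 2L, 1.24 on 2R, 1.41 on 3L, 1.36 on 3R and 1.42 on X, so all arms lie above the arm mean. Of the 390 short TADs, 335 exceeded 1 (85.9%), against 71% of all 1305 TADs. A level of 1.5 or more was reached by 143 (36.7%), against 18.2% of all TADs. Since these contacts are what the segmentation fits, the counts describe the blocks that it found.

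The excess inside short TADs over long TADs was largest between the closest bins. At 10 kb the median was 1.43 in short TADs, 1.17 in medium and 0.783 in long TADs, which makes short TADs 1.83 times as contact-rich as long TADs (1.72 to 1.92 times on the single arms). At 20 kb the medians were 1.19, 1.18 and 0.959, a ratio of 1.24 to long TADs (1.16 to 1.36). At 30 kb, which is measured only in the 150 TADs of 40 kb, the order turned, with 1.02 in short, 1.16 in medium and 1.08 in long TADs. The ratio of 0.946 at 30 kb was below 1 on 2L (0.794), 2R (0.749) and 3R (0.944) but above 1 on 3L (1.10) and X (1.07), so the arms do not share a direction there. On the raw di-tags (1.09) and on the raw map after iterative correction (1.21) it was also above 1. Relative to the arm mean, the level in long TADs thus rises with distance. In the 150 TADs of 40 kb, which hold all 3 distances, it falls from 1.35 at 10 kb to 1.24 at 20 kb and 1.02 at 30 kb.

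**Figure D1:**
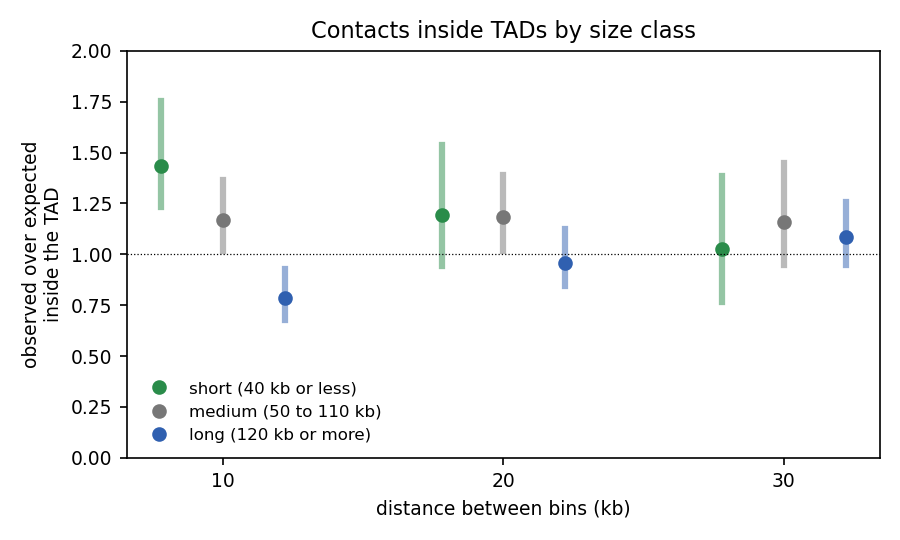
Median (points) and quartiles (bars) of the mean observed over expected interaction inside TADs, for bins 10, 20 and 30 kb apart, by size class. On the normalised map shown, short TADs stand highest at 10 kb (1.43 against 0.783 in long TADs) and are no longer the highest class at 30 kb (1.02 against 1.08 in long TADs).

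Every bin of a short TAD lies close to a border, so the ends of long TADs are the nearer comparison. Among bin pairs within 40 kb of either end of a long TAD, the median at 10 kb was 0.843, against 0.735 in the rest of the long TADs. Short TADs still exceeded these ends 1.70 times at 10 kb and 1.20 times at 20 kb, while at 30 kb the ratio was 0.986.

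Within the short class the level inside depended on size. TADs of 20 kb hold a single bin pair, and their median was 1.62 (quartiles 1.05 and 2.37). It was 1.33 for TADs of 30 kb and 1.29 for TADs of 40 kb, just inside the size limit. Just outside it, the 154 TADs of 50 kb had 1.23. At the distance that they all share, 10 kb, the medians were 1.62, 1.43, 1.35 and 1.30, so the limit at 40 kb cuts through a gradual change. On the raw di-tags the order by size was the opposite, with 1.37, 1.41 and 1.49 for 20, 30 and 40 kb, while after iterative correction it was that of the normalised map, with 2.09, 1.64 and 1.59.

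The normalised level inside also moved with the number of di-tags. Across the 390 short TADs, which differ in size, depth and sequence, the mean observed over expected value inside had a Spearman correlation of -0.55 with the raw total of the TAD's bins on the normalised map, 0.78 on the raw map and -0.14 after iterative correction. These correlations describe the tables and share the same di-tags on both sides. The 292 short TADs whose mean bin total was at least 0.75 of the arm median had a median of 1.28 on the normalised map, 1.6 on the raw map and 1.63 after iterative correction. The other 98 had 1.94, 0.816 and 1.80. The level of a single TAD, whether poorly or well covered, can therefore depend on the map used, while the median of the class lies above the arm mean on each of the maps.

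The extremes show this. Among TADs of 30 and 40 kb, the 3 highest all start a segmented arm at its telomere. The TAD on 3L from 100001 to 140000 reached 6.88 times the arm mean, from 712 di-tags and with bin totals at 0.280 of the arm median. On X from 10001 to 40000 the level was 6.33, from 179 di-tags and totals at 0.202 of the median. On 2L from 50001 to 80000 it was 4.96, from 617 di-tags and totals at 0.529. On the raw map the same TADs had 0.563, 0.206 and 0.669, below the arm mean, and after iterative correction 3.44, 3.16 and 4.12.

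At the lower end, the TAD on 2L from 2190001 to 2220000 had 0.616 times the arm mean, with 2822 di-tags. Its bins held 2.21 times the arm median, the highest total of any short TAD, and on the raw map its level was 3.11. The TAD on 3R from 23720001 to 23750000 had 0.625, with 657 di-tags, and kept a low level on the raw map (0.638) and after iterative correction (0.602). The TAD on 2R from 8460001 to 8500000 had 0.728 on the normalised map but 1.95 on the raw map and 1.30 after iterative correction. It reached 1.06 at 10 kb and fell to 0.369 at 20 kb and 0.438 at 30 kb. Of these extremes, only the TAD on 3R keeps its side of the arm mean on all 3 maps.

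Contacts across the borders were measured between bins of a short TAD and bins of the TAD that adjoins it, also at 10 to 30 kb. The median was 0.703 on the left and 0.726 on the right, and 0.718 over both sides, against 0.697 for medium and 0.645 for long TADs. At equal distance a short TAD contacted its neighbours at a median of 0.615 times the level inside (quartiles 0.492 and 0.753, 388 TADs). The ratio was 0.668 on 2L, 0.644 on 2R, 0.604 on 3L, 0.622 on 3R and 0.554 on X. For medium TADs it was 0.625 and for long TADs 0.723. These ratios average over the distances that each TAD holds, which are fewer in the smallest TADs. At 10 kb the medians across the borders and inside were 0.896 and 1.43 for short TADs and 0.861 and 1.17 for medium TADs. At 30 kb they were 0.649 and 1.02 for short, the latter from 150 TADs, and 0.639 and 1.16 for medium TADs. Between these medians the step at short TADs was deeper than at medium TADs at 10 kb but shallower at 30 kb. Contacts with neighbours fell to at most 0.5 of those inside at 102 of 388 short TADs (26.3%), against 16.2% of all TADs. The ratio lay below 1 at 361 of 388 short TADs (93.0%), at 99.3% of medium and at 98.2% of long TADs, so a ratio of 1 or more was most frequent among the short ones. Some of these are 20 kb TADs whose single bin pair held few di-tags, such as 6 on 2L from 2100001 and 32 on 3L from 8490001. Others are well covered 40 kb TADs, such as those on 2L from 540001 (2593 di-tags) and on 2R from 20250001 (2539). The part of low counts was not tested.

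The level across the border differed with the class of the neighbour. On 178 sides that adjoin another short TAD the median was 0.768 (quartiles 0.618 and 0.968), on 350 sides with a medium TAD 0.732, and on 233 sides with a long TAD 0.653 (quartiles 0.536 and 0.790). The quartile ranges overlap widely. Relative to the level inside the short TAD, the medians were 0.620, 0.624 and 0.587.

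Left and right sides were alike over the class, since of 372 short TADs with a TAD adjoining on both sides 189 had the stronger contact on the left and 183 on the right. The stronger side exceeded the weaker by a median of 1.22 times, which is also the median over all TADs. At 59 (15.9%) the ratio was 1.5 or more, against 17.5% of all TADs, so short TADs were not more one-sided than the rest. As averages, both sides lay below the level inside at 348 of the 372, and at the other 24 the stronger side reached or passed it. The distances are unlike, since the sides run to 30 kb while the level inside stops at 10 kb in 20 kb TADs and at 20 kb in 30 kb TADs. Values across borders fall with distance (medians 0.896 at 10 kb and 0.649 at 30 kb), so the count leans towards sides below the inside. It was not taken over all TADs. The remaining 18 short TADs lack an adjoining TAD on a side, because they lie at an arm end or beside one of the 28 gaps of the segmentation.

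The largest ratio between sides, 13.0, was found on 2L from 22420001 to 22450000, near the centromere. Its contact with the medium TAD on the left was 0.118 times the arm mean and with the long TAD on the right 1.53 times, above the level of 1.27 inside it. On X from 12580001 to 12610000 the sides stood at 0.332 and 1.86, and inside it was 2.53. The 20 kb TAD on 3R from 16080001 to 16100000 had 0.461 on the left and 1.51 on the right, against 1.12 inside, where its pair of bins held 137 di-tags. In the first and the third of these TADs the average of the stronger side passes the level inside, so that on these averages, over unlike distances, the block is set off from a single neighbour. The most even sides were found on 3L from 8690001 to 8720000 (both 0.938), on 2L from 3250001 to 3270000 (1.088 and 1.089) and on 3L from 9440001 to 9460000 (1.084 and 1.083).

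**Figure D2:**
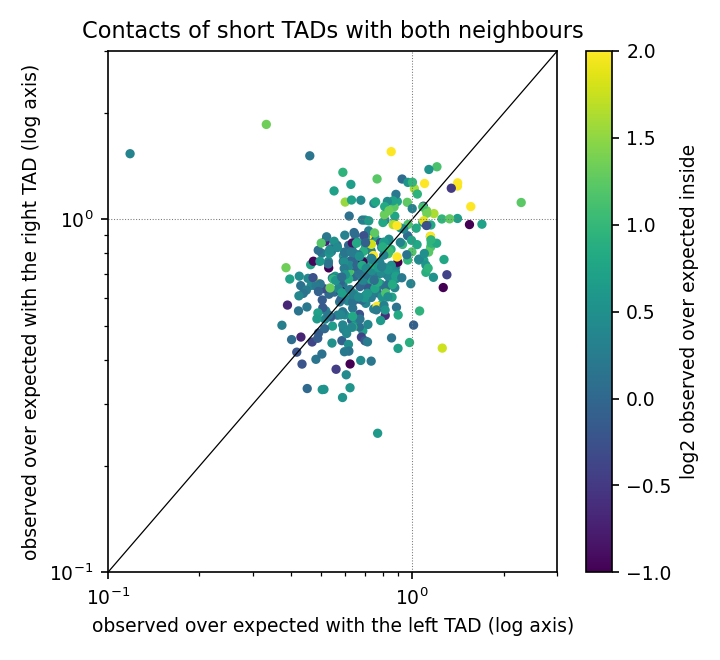
Observed over expected interaction of each short TAD with the TAD on its left (horizontal, log axis) and right (vertical, log axis) at 10 to 30 kb. Colour gives log2 of the level inside, with the scale ending at -1 and 2. Points scatter around the diagonal, with 189 TADs stronger on the left and 183 on the right, and most lie below 1 on both axes.

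The contacts that pass over a short TAD, from the TAD on its left to that on its right, were measured as well. At 30 to 100 kb, the contact between both flanking TADs had a median of 0.494 times the arm mean, below the 0.642 of the short TAD with its flanks at equal distance. The contact of the flanks was the higher value at 101 of 372 short TADs (27.2%). At the 37 short TADs with a long TAD on both sides the medians were 0.688 for the flanks with each other and 0.631 for the short TAD with its flanks, and at 21 of the 37 (56.8%) the long TADs contacted each other more, against 23.9% of the other 335.

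Short TADs followed each other less often than their number would give. Of the 388 short TADs with a further TAD on the arm, 90 were followed by a short TAD (23.2%, 95% Wilson interval 19.3 to 27.6%), against 29.7% of all TADs. The interval takes TADs as independent draws, although they come from a single segmentation, so it is not a test. If the order of the TADs on each arm were shuffled, the mean would be 116.9 such pairs or 30.1%, so the measured number was 0.770 times that value. All 5 arms lay below it, with 20 pairs against 26.9 on 2L, 18 against 18.5 on 2R, 17 against 21.4 on 3L, 13 against 19.1 on 3R and 22 against 31.0 on X. The value on 2R hardly differs. With a size limit of 30 or 50 kb, or without the arm ends, 4 of the 5 arms lay below.

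Long TADs made up the difference. After a short TAD 31.7% of the next TADs were long, against 22.7% after other TADs, and 45.1% were medium, against 44.8%. On the same footing 23.2% were short, against 32.5% after other TADs. Of all TADs 25.3% are long and 29.9% short, so the long excess is smaller when set against these shares. The lengths come from the segmentation, from which the authors had removed the weakest borders, and the part of that step in the order was not tested.

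The 390 short TADs form 300 runs, of which 233 are a single TAD, 52 a pair, 10 hold 3 TADs, 2 hold 4 and 3 hold 5. In a shuffled order the means would be 81.6 runs of at least 2, 24.6 of at least 3, 7.44 of at least 4 and 2.27 of at least 5, against 67, 15, 5 and 3 measured. Runs of at least 2, 3 and 4 TADs were thus fewer than in a shuffled order, and only those of 5 were not. Short TADs in runs had a median level inside of 1.45 and those alone of 1.31, while the contact with neighbours relative to the inside was 0.594 and 0.628.

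The 15 runs of 3 or more lie on all arms, 4 on each of 2L and 3L, 3 on X and 2 on each of 2R and 3R. Along the arm in steps of 20% from telomere to centromere, the successive steps hold 5, 4, 3, 3 and 0 of them. Short TADs pooled over the arms thinned out in the same direction, with 35.0, 31.3, 31.0, 26.0 and 25% of the TADs of each step. On each arm the last step had a lower share than the first, but the decline was uneven. The steps of 2R had 32.8, 20.5, 32.1, 22 and 27.1%, and those of 3L 30.5, 30.2, 28.3, 29.1 and 26.1%. For the runs, no value of a shuffled order was computed by step. In the megabase next to the telomere 31 of 73 TADs were short (42.5%), namely 9 of 16 on 2L, 5 of 16 on 2R, 7 of 16 on 3L, 4 of 12 on 3R and 6 of 13 on X. Next to the centromere it was 9 of 39 (23.1%), namely 1 of 7 on 2L, 3 of 8 on 2R, 0 of 4 on 3L, 2 of 12 on 3R and 3 of 8 on X. On 2R the share next to the centromere (37.5%) was above that next to the telomere (31.3%), unlike on the other arms.

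**Figure D3:**
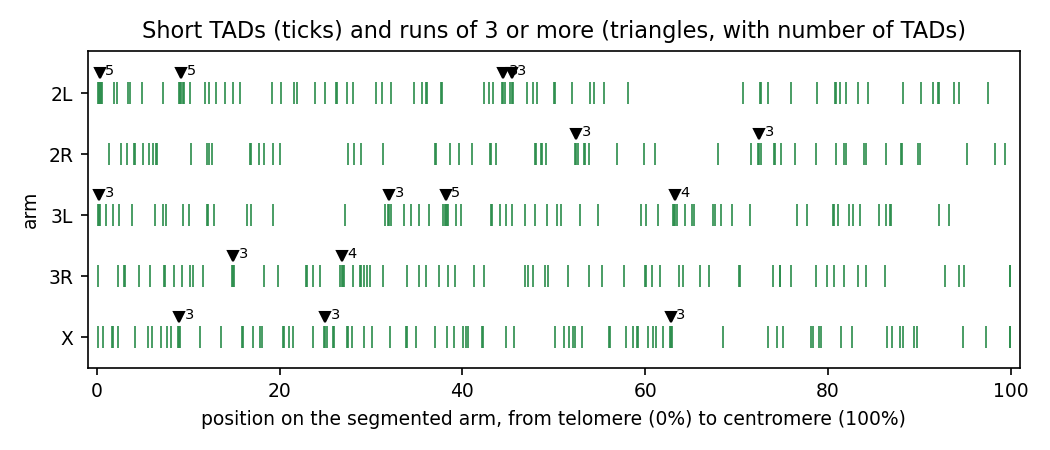
Each tick is a short TAD, placed by its middle on the segmented arm from telomere (0%) to centromere (100%), and each triangle a run of at least 3 in a row, with the number of TADs beside it. The 15 runs spread over all arms, and the 20% next to the centromere hold none.

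The longest run of 2L by length holds 5 TADs from 2100001 to 2240000. Along the run the levels inside were 0.374, 1.03, 1.6, 0.616 and 1.72 times the arm mean, and the bin totals 0.198, 0.994, 1.08, 2.21 and 0.941 of the arm median. The first value rests on 6 di-tags between a pair of bins (exact Poisson interval 2.2 to 13.1, counting error only). This run therefore joins blocks of very unequal depth.

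The 5 TADs on 3L from 9350001 to 9500000 were more even, with 1.47, 1.68, 2.36, 2.13 and 1.52 inside and bin totals between 0.637 and 0.727 of the arm median. Contacts between successive TADs of this run had a mean of 1.01, above the median of 0.768 for short TADs side by side. Its levels inside were likewise above the class median of 1.34. The means between successive TADs of the runs were computed on the normalised map alone, where the level inside moved with the bin total. On 3R, 4 TADs from 20340001 to 20490000 had 1.13, 1.11, 1.93 and 1.35 inside and a mean of 0.550 between successive TADs, so that each block stands out from the next. On 2R, runs of 3 TADs and 100 kb tie as the longest. The one from 5760001 to 5860000 had 1.32, 1.43 and 1.43 inside, 0.925 between its TADs and a mean bin total at 0.955 of the arm median. The other, from 10000001 to 10100000, had 1.00, 1.16 and 1.58 inside, 0.569 between its TADs and a mean bin total of 1.19, so the tied runs differ in how far their blocks stand out. The longest run of X, from 5560001 to 5660000, had 1.45, 1.48 and 1.16 inside and 0.648 between them. The telomeric run of 2L, from 50001 to 180000, was chosen after its values were seen. It had 4.96, 1.66, 2.22, 1.96 and 2.33 inside and 1.10 between successive TADs.

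The raw totals count all di-tags with an end in a bin, on the same arm or another. The 1229 bins of short TADs held a median of 5490 di-tags (quartiles 4410 and 6284), 0.983 times the arm median, against 5822 or 1.04 times for medium and 5408.5 or 0.973 times for long TADs. Short TADs thus were covered like long ones, and the ratio ranged from 0.951 on 3L to 1.01 on 2L. Size again made a difference, with 0.863 for bins of 20 kb TADs, 0.979 for 30 kb, 1.03 for 40 kb and 1.04 for 50 kb. Bins with under 0.25 of the arm median made up 10.4% of the bins in 20 kb TADs, 2.27% in 30 kb, 2.00% in 40 kb and 0.649% in 50 kb TADs. Over all short TADs it was 3.50%, over all TADs 2.47%, and a single bin was empty.

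Per TAD, the mean bin total was at most 0.5 of the arm median at 21 short TADs (5.38%), against 3.6% of all TADs. The lowest were on X from 21820001 to 21840000 (0.0769 of the median), on 2R from 350001 to 370000 (0.0874) and the 20 kb TAD on 2L from 2100001 to 2120000 (0.198). Each of these held 6 di-tags inside. The highest were the 2L TAD from 2190001 to 2220000 (2.21), the X TAD from 6740001 to 6780000 (2.14, with 5761 di-tags inside) and the 2L TAD from 8200001 to 8240000 (1.87, with 5685). The levels inside these last 3 were 0.616, 0.835 and 0.926 on the normalised map. Over all short TADs the di-tags inside at 10 to 30 kb ranged from 6 to 5892 with a median of 1422.5.

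The di-tags of short TADs were spread over distances in another way than those of long TADs. Di-tags with both ends in the same bin made up a median of 7.99% of the total in bins of short TADs (quartiles 6.07 and 9.83%), 5.45% in medium and 2.53% in long TADs, a ratio of 3.16 between short and long. In the end bins of long TADs it was 4.29%. The share was highest for 20 kb TADs (8.76%) and then 8.25, 7.58 and 7.25% for 30, 40 and 50 kb. On each arm short TADs stood at 7.45 to 8.77% and long TADs at 2.37 to 2.74%. The ratio of contacts at 10 to 50 kb to those over 50 to 500 kb was 1.47 in bins of short TADs (quartiles 1.13 and 1.90), 1.44 in medium and 0.755 in long TADs. By size it ran opposite to the share within a bin, with 1.22 for 20 kb, 1.41 for 30 kb, 1.53 for 40 kb and 1.59 for 50 kb TADs, so it was lowest in the shortest TADs and higher just outside the size limit than inside it. End bins of long TADs had 0.794, and these adjoin a long block on their inner side.

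**Figure D4:**
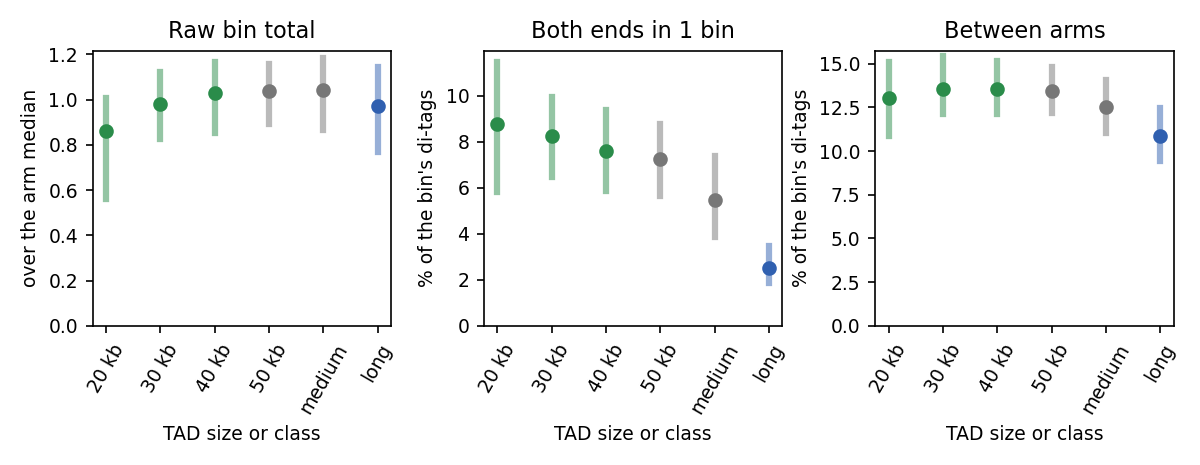
Median (points) and quartiles (bars) over bins of the raw total relative to the arm median, of the share of di-tags with both ends in the same bin, and of the share of di-tags that join different arms, for short TADs by size (green), TADs of 50 kb, all medium TADs (50 kb included) and long TADs. Totals are lowest in 20 kb TADs (0.863, against 1.04 in 50 kb and 0.973 in long TADs). Both shares are higher in short than in long TADs (7.99 against 2.53% and 13.5 against 10.8%).

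Contacts with other arms were not part of the blocks that the segmentation fits. In bins of short TADs a median of 13.5% of di-tags (quartiles 12 and 15.3%) joined another arm or scaffold, against 12.5% in medium and 10.8% in long TADs. Short TADs had the higher median on each arm, with 13.9 against 10.8% on 2L, 13.5 against 11.2% on 2R, 13.9 against 11.3% on 3L, 12 against 9.85% on 3R and 14.6 against 11.7% on X. Summed over all bins the share was 13.8% (95% Wilson interval 13.8 to 13.9%) and 11.4% (11.4 to 11.4%), where the intervals cover counting error only. Without maps of each replicate the difference could not be tested against their spread. The share is relative to the total of the bin, which also holds the contacts inside the TAD. By size its median was 13.0% for 20 kb, 13.6% for 30 kb and 13.6% for 40 kb TADs. Just outside the size limit it was 13.5% for 50 kb TADs, so this share is not particular to short TADs. End bins of long TADs had 11.7%.

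At a distance, contacts of short TADs with each other exceeded those with long TADs. Between TADs on the same arm that do not adjoin, 50 to 500 kb apart, the mean was 0.879 times the arm mean for short with short (5866 bin pairs), 0.714 for short with medium (35880), 0.646 for short with long (44753) and 1.19 for long with long TADs (98643). The value of short with short thus was 1.36 times that of short with long, and 1.31, 1.18, 1.55, 1.33 and 1.47 times on 2L, 2R, 3L, 3R and X. It remained below that of long with long TADs, at 0.736 times. The ratio of short-short to short-long was 1.22 at 50 to 100 kb, where 3R had 0.934, 1.46 at 110 to 200 kb and 1.40 at 210 to 500 kb. The closest range holds only 527 pairs of short with short.

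Between different arms, short with short again exceeded short with long, while the place of long with long changed. With the expected number taken from the totals of both bins in that pair of arms, raw di-tags between short TADs were 1.11 times expected (54716 di-tags), those of short with medium TADs 1.04 times, of short with long TADs 0.939 times (393933 di-tags) and of long with long TADs 1.04 times. Long with long TADs, the highest class within an arm, stood below short with short TADs here. The measure differs, however, since values within an arm are normalised signal over the mean at that distance, without the bin totals. The change of place cannot be told apart from this change of measure. Short with short exceeded short with long by 1.18 times, in all 10 pairs of arms, from 1.12 times (2R with 3R) to 1.30 times (2L with X). This value was not recomputed without the arm ends, although short TADs are more frequent in the megabase next to the telomere (42.5% of TADs). Long with long exceeded short with long in all 10 as well, by 1.11 times overall. The pairs of arms share their bins and are not replicates, and both ranges come from a single pooled map.

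**Figure D5:**
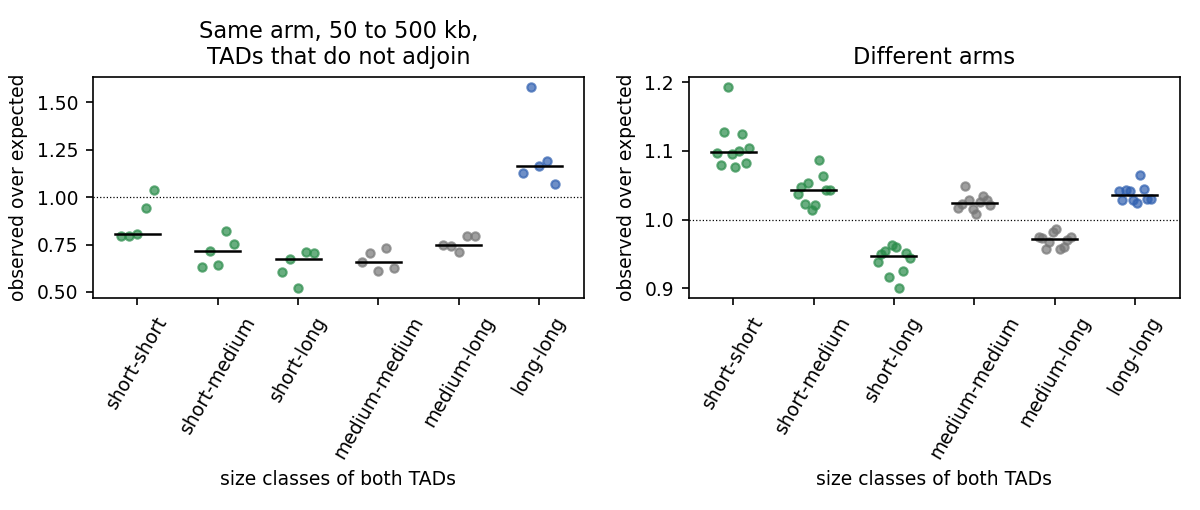
Observed over expected interaction by the size classes of both TADs. Left, TADs of the same arm that do not adjoin, 50 to 500 kb apart, on the normalised map, with a point for each of the 5 arms. Right, different arms on the raw di-tags, with a point for each of the 10 pairs of arms. Black lines give medians of the points. Short-short lies above short-long on each of the 5 arms (pooled ratio 1.36) and in each of the 10 pairs of arms (pooled ratio 1.18).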

How the data were processed

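Hi-C with DpnII was performed by the authors on Kc cells in replicates 1 and 2. Reads were aligned by the authors to release 5 (dm3) with HiCUP 0.5.7 (Bowtie2 2.2.6 in the submitters' processing notes), binned at 10 kb and pooled. The deposited count of di-tags is raw. The deposited signal was normalised with GOTHiC 1.6.0, and segments came from HiCseg, with the weakest borders removed. Segment coordinates, in bp, are as deposited.

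Observed over expected is the value over the mean of its arm at that distance, bin pairs without di-tags taken as 0 and empty bins left out. Values for a TAD are means over its bin pairs, and ratios across borders are means of log2 ratios at 10, 20 and 30 kb. Values for a shuffled order were computed in closed form. Regions named were the longest run of each arm (by number of TADs, then length, then position, with the tied run of 2R given too) and the 3 highest and 3 lowest short TADs for level inside (TADs of 30 and 40 kb), ratio of sides and raw total. The members and measures were chosen with earlier results of these data known. Scripts were tested on simulated maps and used pandas 2.3.3, scipy 1.17.1 and numpy 2.4.6 under Python 3.11.15, and matplotlib 3.10.9. Gene positions of release 6 were not used, and no sequence of release 5 was at hand. Alternatives were the raw map, iterative correction, removal of bins, X or arm ends, and other size limits. Not every alternative was applied to every result, and contacts between arms were not recomputed without the arm ends.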

Additional observations from a re-analysis of the deposited data

How the results depend on the processing

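Of 63 recomputed values of 12 results, 49 kept their direction and moved by less than the SD over the 5 arms. For contacts between arms the SD was over the 10 pairs of arms, and for the share of short neighbours the Wilson interval was the limit. A further 12 moved by more, and 2 passed to the other side of 1. With raw di-tags or with iterative correction, in this order, the level inside short TADs was 1.42 and 1.64, the ratio to long TADs 2.04 and 2.36 at 10 kb and 1.37 and 1.58 at 20 kb, and the ratio of short-short to short-long contacts at 50 to 500 kb 1.54 and 1.59. At 30 kb the ratio to long TADs turned to 1.09 and 1.21, and the cause was not tested. With short TADs of 30 kb or less, contacts at 10 to 50 kb over those at 50 to 500 kb stood at 1.37 and the bin total 0.948 of the arm median, and the ratio at 30 kb has no value. The share of next TADs that are short was 13.9% with that limit, against 18.7% in a shuffled order, and 35.2% with a limit of 50 kb, against 42.0%. Of the TADs named for their level inside, those on 3L from 100001, on X from 10001 and on 2L from 50001 fell below the arm mean on the raw map (0.563, 0.206 and 0.669), while those on 2L from 2190001 (3.11) and on 2R from 8460001 (1.95, and 1.30 after iterative correction) passed above it. No paired analysis was possible because the map pools both replicates, and for the same reason neither replicate could be left out.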

Other observations

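The segmentation leaves 28 gaps of 20 to 270 kb between TADs, 1120 kb in all, and 12 of them adjoin a short TAD. In 7 gaps the bins held fewer than 30 di-tags in all. Leaving out neighbours across gaps left the share of short TADs followed by a short TAD at 23.2%. That alternative was added after the data were seen. So were the alternatives for contacts between arms and for di-tags within 1 bin, the maps compared for the TADs named, and the removal of bins with the highest sums for the ratio of short-range contacts.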
